A study of Homo sapiens with 21 samples.

Results

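Keratins are the proteins that build the intermediate filaments of epithelial cells. The 8 keratin genes KRT7, KRT8, KRT18, KRT19, KRT15, KRT80, KRT81 and KRT86 were taken by symbol from a deposited table of gene counts, a set chosen by name with earlier results of these data known. All 8 were among its 16553 genes, and all 8 were among the 15969 that passed a filter on low counts. The table comes from RNA sequencing of AU565, a line of human breast cancer cells in which ERBB2 is amplified. They grew flat in monolayers or rounded up in 3D aggregates, with or without trastuzumab, an antibody that binds the ERBB2 product HER2. There were 21 libraries in 7 groups of 3. Monolayers were untreated, exposed acutely (20 µg/ml trastuzumab for 24 h) or primed (the same exposure and 96 h of further culture). All aggregates formed over 96 h in a liquid overlay with 5% matrigel. They were untreated, primed (from a monolayer given 20 µg/ml for 24 h), treated (50 µg/ml for 24 h after the 96 h), or both primed and treated. Aggregates given the 24 h of treatment were therefore older by that time at harvest than those without it. The labels give no culture time for untreated monolayers. A single cell line was used, and whether the replicates were cultured separately is not stated in the labels, so p-values reflect only how much these samples varied, which may be technical variation.

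A keratin filament is built from pairs of 1 type I and 1 type II keratin, and a keratin without a partner is degraded. KRT8 (type II) and KRT18 (type I) form the basic pair of simple epithelia such as the luminal layer of the breast. KRT7 (type II) and KRT19 (type I) are added to them in ducts, and KRT19 lacks most of the tail domain of other keratins. KRT15 is a type I keratin of basal cells and hair follicle stem cells, KRT80 a type II keratin of many epithelia, and KRT81 and KRT86 are type II keratins of the hair shaft.

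On GRCh38, in the GENCODE 29 annotation, 6 of the 8 genes lie in the keratin cluster of chromosome 12 and the other two on chromosome 17. On chromosome 12 the order is KRT80 (Entrez 144501, 52168996 to 52192000, minus strand), KRT7 (3855, 52232520 to 52252186, plus), KRT86 (3892, 52249300 to 52309163, plus), KRT81 (3887, 52285913 to 52291534, minus), KRT8 (3856, 52897187 to 52949954, minus) and KRT18 (3875, 52948871 to 52952901, plus). On chromosome 17 KRT15 (3866, 41513743 to 41522529, minus) lies next to KRT19 (3880, 41523617 to 41528308, minus). The exons of KRT8 and KRT18 share 525 bases on opposite strands, and those of KRT7 share 282 bases with the antisense gene KRT7-AS. Whether the counting used strand is not given in the sources used here, so reads from these shared bases cannot be told apart. Of all 50-base windows of the mRNA, 52.5% in KRT18 (23.8% in KRT8 itself) and 39.7% in KRT8 (23.2% in the pseudogene KRT8P3) occur in other genes too, against 1.79% in KRT19, 0.725% in KRT15 and 0.42% in KRT80.

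KRT81 lies within the span of KRT86 on the other strand, shares no exon base with it, and is 94.2% identical to it in coding sequence (1369 of 1454 aligned bases). The longest identical run is 605 bases, and 38.4% of the 50-base windows of KRT81 mRNA also occur in KRT86. The stretch of 90 coding bases that differs most between them is shown because only such bases let a read be assigned to 1 of the 2 genes. It covers coding bases 1237 to 1326 and spans an intron in both, at chr12:52286447-52287112 (minus strand) for KRT81 and chr12:52306270-52308450 (plus strand) for KRT86. Capitals mark the 19 bases that differ, and sequences are those of GENCODE 29 transcripts on GRCh38.
KRT81: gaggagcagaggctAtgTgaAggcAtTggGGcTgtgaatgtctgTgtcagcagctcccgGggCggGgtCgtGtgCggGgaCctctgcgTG
KRT86: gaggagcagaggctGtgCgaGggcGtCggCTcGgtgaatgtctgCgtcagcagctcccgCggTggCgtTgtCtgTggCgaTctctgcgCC
In contrast, coding bases 61 to 150 are the same in both genes, at chr12:52291316-52291405 for KRT81 and chr12:52301977-52302066 for KRT86, and a read from them fits either gene.
KRT81 and KRT86: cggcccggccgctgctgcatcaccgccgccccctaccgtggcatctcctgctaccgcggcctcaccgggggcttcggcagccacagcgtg
Levels of KRT81 and KRT86 are therefore uncertain to the extent that reads were assigned to the wrong copy, and where summing KRT81, KRT83, KRT85 and KRT86 changed a call for one of them, the sum is given beside it.

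Libraries held 15005070 to 26921113 counts. Levels below are CPM, which are counts scaled to a common library total after TMM normalization, and the SD is over n = 3. A difference passed when edgeR's quasi-likelihood test gave an adjusted p under 0.05. Of 14 markers of luminal breast epithelium, all were in the table, and their sum was 8667 to 12696 CPM per library. ERBB2, amplified in this line, made up most of it, with group means of 6189 to 9937 CPM. In the 7 groups EPCAM averaged 126 to 286 CPM, GATA3 3.42 to 11 and the adhesion gene CDH1 0.153 to 2.18. The sum therefore mainly follows ERBB2 and is no measure of luminal identity. The 7 basal and myoepithelial markers in the table summed to 6.42 to 18.3 CPM, with KRT14 at 0.0197 to 0.614. Melanocyte markers split the libraries into sets of 12 and 9, with kidney marker sums that overlapped. In 12 libraries (untreated and acutely exposed monolayers, untreated and primed aggregates) 9 melanocyte markers summed to 24.4 to 125 CPM and 15 kidney markers to 17.7 to 29.7. In the other 9 (primed monolayers, and aggregates treated with or without priming) the sums were 6.69 to 15.2 and 27.8 to 69.5. No group has libraries in both sets, so a comparison across the sets cannot tell treatment and set apart. A heart muscle gene, MYH7, reached 20.6 to 87.4 CPM in replicates 1 and 2 of untreated monolayers, 2 and 3 of acutely exposed monolayers and 1 and 2 of untreated aggregates, while the other 15 libraries had at most 0.11 CPM. Results were also computed without these 6 libraries (chosen once the data had been seen). This leaves 1 library each of untreated monolayers, acutely exposed monolayers and untreated aggregates. A call lost there can therefore come from having fewer libraries. In bulk RNA, fewer cells of a type and less RNA per cell cannot be told apart.

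The 8 keratins together took 0.957% ± 0.0484 of all counts in untreated monolayers, 1.05% ± 0.0437 in acutely exposed ones and 1.59% ± 0.10 in primed ones. In aggregates their share was 1.17% ± 0.0124 untreated, 0.941% ± 0.085 primed, 1.01% ± 0.0412 treated and 0.916% ± 0.0458 primed and treated. The 3 primed monolayer libraries, at 1.49 to 1.69%, stood above all the others. Compared per kb of mRNA, KRT7, KRT8, KRT18, KRT19 and KRT81 made up nearly the whole of this. In untreated monolayers KRT19 was at 1318 CPM per kb, KRT8 at 1237, KRT7 at 1116, KRT81 at 1075 and KRT18 at 743, while KRT86 was at 37.9, KRT15 at 18.1 and KRT80 at 14.8. In untreated aggregates KRT19 (2148 CPM per kb) and KRT81 (1902) led, and KRT8 (775) and KRT18 (657) came after KRT7 (1397). KRT8 made up 22.3% of the summed CPM per kb in untreated monolayers and 11% in untreated aggregates, and KRT81 19.3% and 27%.

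**Figure D1:**
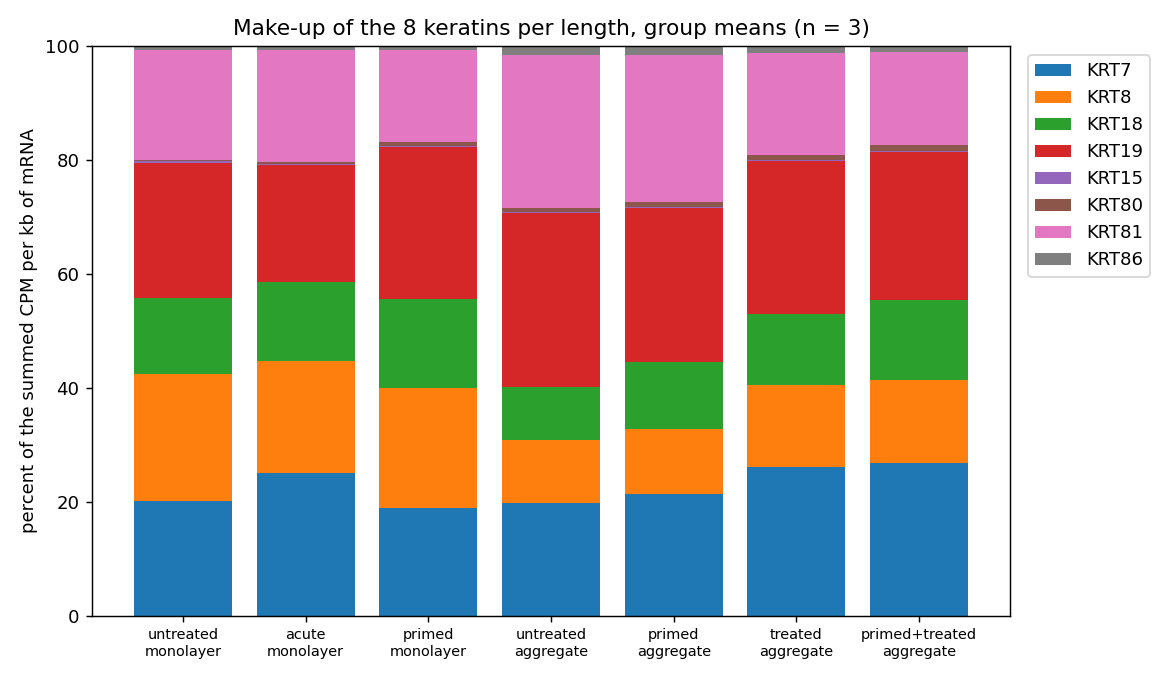
Stacked bars give each keratin's percent of the summed CPM per kb of mRNA of the 8 keratins, as group means of 3 libraries, for the 7 groups on the horizontal axis. KRT8 (orange) takes 22.3% in untreated monolayers and 11% in untreated aggregates, and KRT81 (pink) 19.3% and 27%.

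KRT8, the type II member of the basic pair, separated monolayers from aggregates. Replicates 1 to 3 were at 2140.2, 2107 and 2267 CPM in untreated monolayers, 2139, 2188 and 2123 in acutely exposed ones and 3876, 3577 and 3478 in primed ones. In aggregates KRT8 was at 1274, 1317 and 1491 CPM untreated, 1238, 1096 and 1076 primed, 1549, 1488 and 1504 treated and 1421, 1359 and 1415 primed and treated. Every monolayer library was above every aggregate library, and the 3 primed monolayers were above the other 18 libraries. In the order of group means, untreated and acutely exposed monolayers overlapped, as did primed and treated and untreated aggregates, and the other neighbours did not.

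KRT18, its type I partner, varied less between the 2 culture forms. It was at 1033, 1049.8 and 1081 CPM in untreated monolayers, 1207, 1254 and 1231 in acutely exposed ones and 2338, 2108 and 2063 in primed ones. In aggregates it was at 902, 921 and 975 CPM untreated, 923, 963 and 957 primed, 1134, 1078 and 1013 treated and 1171, 1066 and 1041 primed and treated. Primed monolayers were again above all the others, acutely exposed monolayers came next without overlap, and untreated and primed aggregates were lowest and overlapped each other. Treated aggregates, primed and treated aggregates and untreated monolayers, in the middle of the order, overlapped.

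The ratio of KRT8 to KRT18 counts within a library needs no scaling between libraries. It was 2.06 ± 0.0469 in untreated monolayers, 1.75 ± 0.024 in acutely exposed ones and 1.68 ± 0.0198 in primed ones. In aggregates it was 1.46 ± 0.0627 untreated, 1.2 ± 0.122 primed, 1.41 ± 0.0653 treated and 1.28 ± 0.0735 primed and treated. All 9 monolayer libraries, at 1.66 or more, were above all 12 aggregate libraries, at 1.53 or less. The count ratio of the pair thus differed between monolayers and aggregates, where growth form, matrigel and time cannot be told apart. Reads from bases that both genes share may have been assigned to either gene. Over the 21 libraries log2 levels of KRT8 and KRT18 had a Pearson r of 0.89, given as a description of libraries that share their groups.

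KRT19, the type I keratin of ducts, was high in primed monolayers and in untreated aggregates. It was at 1737, 1795 and 1964 CPM in untreated monolayers, 1697, 1789 and 1814 in acutely exposed ones and 3919.8, 3683 and 3330.3 in primed ones. The aggregates had 2855, 2923 and 3178 CPM untreated, 1962, 2353 and 2141 primed, 2229, 2337 and 2126 treated and 2027, 2027 and 1873 primed and treated. The 2 highest groups stood apart from each other and from the rest, and each of the 5 lower groups overlapped its neighbour in the order.

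KRT7, the ductal type II keratin, had the smallest range of group means of the 8, 1.66-fold from lowest to highest. It was at 1856, 1935 and 2084 CPM in untreated monolayers, 2459.5, 2761 and 3012 in acutely exposed ones and 3479, 3281 and 2968 in primed ones. In aggregates it was at 2661, 2402 and 2286 CPM untreated, 1926, 2156 and 2324 primed, 2764, 2873 and 2593 treated and 2761, 2600.1 and 2380.3 primed and treated. Each group overlapped its neighbour in the order, from primed monolayers at the top to untreated monolayers at the bottom. Against KRT8 in the same library KRT7 counts stood at 0.901 ± 0.0299, 1.28 ± 0.135 and 0.89 ± 0.0327 times in untreated, acutely exposed and primed monolayers, and at 1.81 to 1.89 times, as group means, in the 4 aggregate groups. The lowest aggregate library, at 1.53, was above the highest monolayer library, at 1.42.

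KRT15, the type I keratin of basal cells, was the lowest of the 8 per kb of mRNA in all groups but untreated monolayers, where KRT80 was lower. It was at 40.7, 45.4 and 44 CPM in untreated monolayers, 31.5, 31.2 and 35.7 in acutely exposed ones and 41, 35.8 and 36.1 in primed ones. In aggregates it was at 26.3, 28.3 and 21.8 CPM untreated, 11.7, 14.8 and 17.4 primed, 21.7, 22.3 and 19.3 treated and 25.4, 22.3 and 18.7 primed and treated. All 9 monolayer libraries were above all 12 aggregate libraries, and primed aggregates were below the other aggregates without overlap.

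KRT80 had the largest range of group means of the 8, 5.28-fold. It was at 60.2, 55.1 and 56.2 CPM in untreated monolayers, 89, 88.1 and 86.1 in acutely exposed ones and 317, 298 and 292 in primed ones. Aggregates were at 182, 192 and 188 CPM untreated, 166, 206 and 197 primed, 208, 212 and 189 treated and 228, 215 and 201 primed and treated. The 3 monolayer groups were fully apart from each other, with primed ones above and the others below all aggregates, while the 4 aggregate groups overlapped along the order.

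The hair keratin KRT81 was highest in untreated aggregates. It was at 1910.4, 2046 and 2264 CPM in untreated monolayers, 2232, 2383 and 2456 in acutely exposed ones and 3293, 3098 and 2776 in primed ones. In aggregates it was at 3512, 3656 and 3837 CPM untreated, 2264, 3272 and 3062 primed, 2127, 2273 and 1881 treated and 1855, 1750.3 and 1561 primed and treated. Untreated aggregates were above every other library and primed and treated aggregates below every other library. Replicate 1 of the primed aggregates, at 2264 CPM, lay well under the other two.

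KRT86, its near copy, was also highest in untreated aggregates. It was at 70.8, 78.3 and 88.7 CPM in untreated monolayers, 94.3, 99.9 and 101 in acutely exposed ones and 143, 146 and 118 in primed ones. The aggregate libraries had 237, 209 and 222 CPM untreated, 152, 231 and 204 primed, 145, 156 and 144 treated and 127, 127 and 111 primed and treated. Primed aggregates overlapped untreated and treated ones, again with replicate 1 low, and untreated monolayers were below all others. KRT81 counts were 26.2 ± 0.737, 23.9 ± 0.319 and 22.6 ± 1.16 times those of KRT86 in untreated, acutely exposed and primed monolayers. In untreated, primed, treated and primed and treated aggregates the ratio was 16.6 ± 1.5, 14.7 ± 0.468, 14.1 ± 0.88 and 14.2 ± 0.41, and no aggregate library reached the lowest monolayer library.

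**Figure D2:**
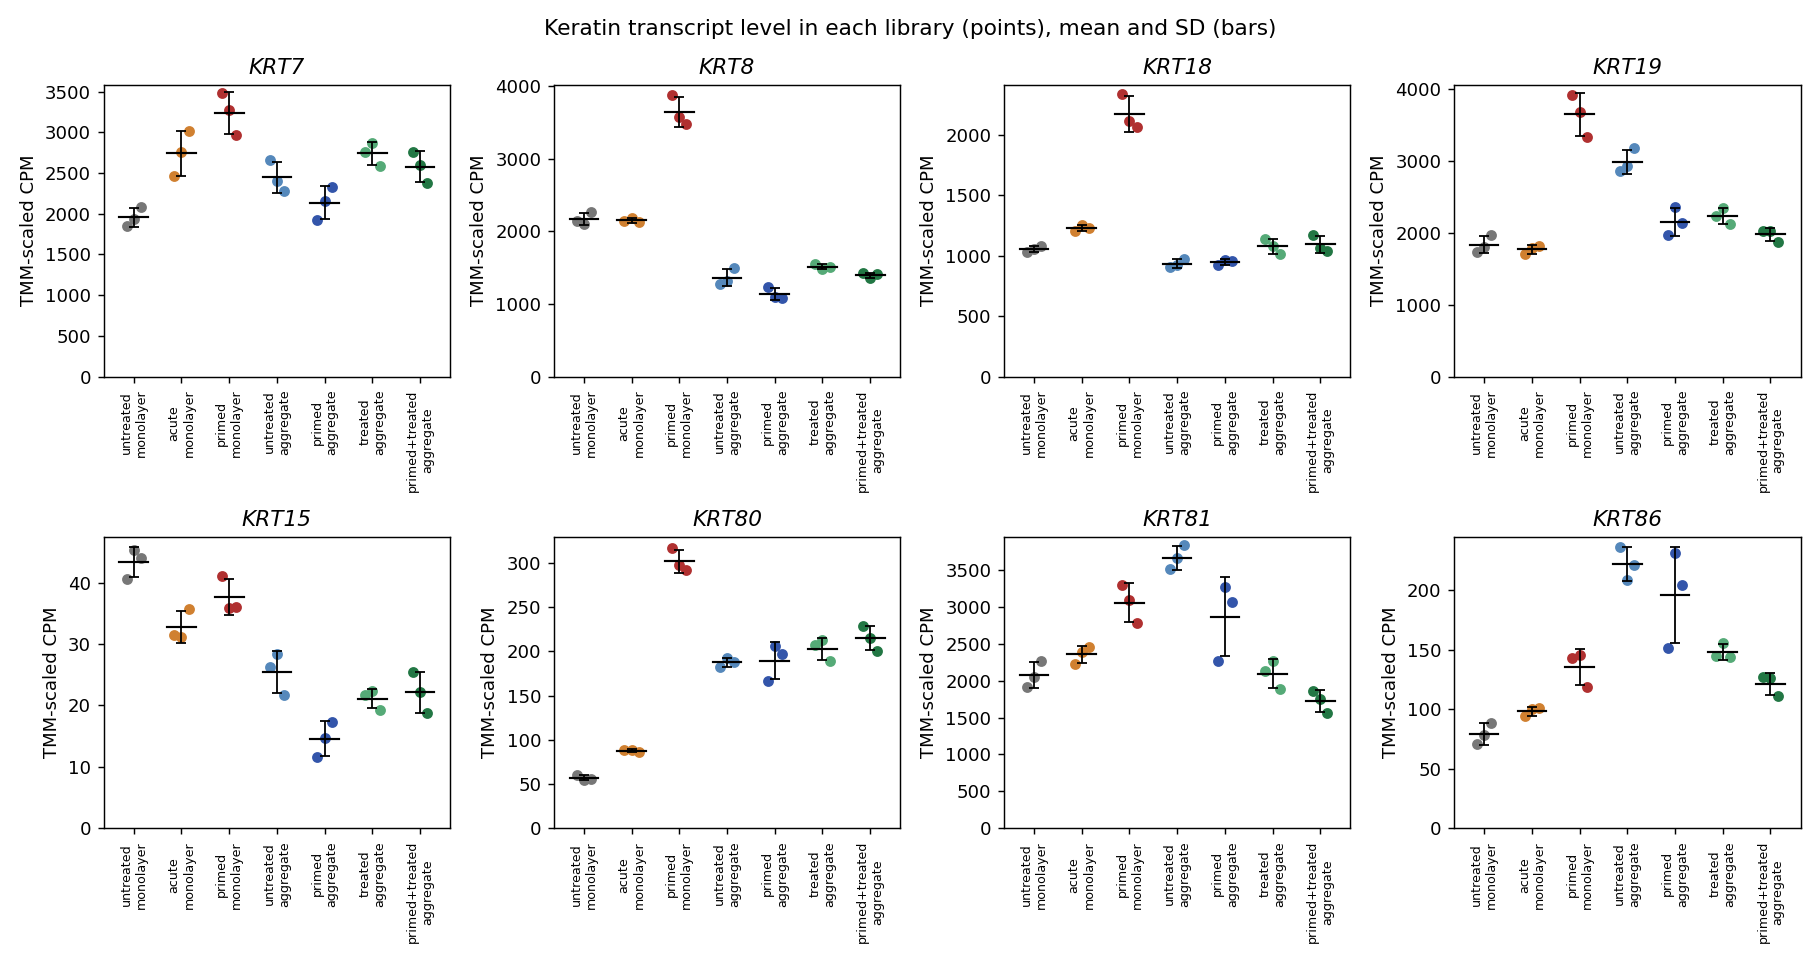
Each panel shows 1 keratin, with the level in TMM-scaled CPM on a linear axis from 0 and the 7 groups on the horizontal axis. Points are libraries, the long bar is the group mean and the error bar the SD (n = 3). Primed monolayers (dark red) are highest for KRT7, KRT8, KRT18, KRT19 and KRT80, and untreated aggregates for KRT81 and KRT86.

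**Figure D3:**
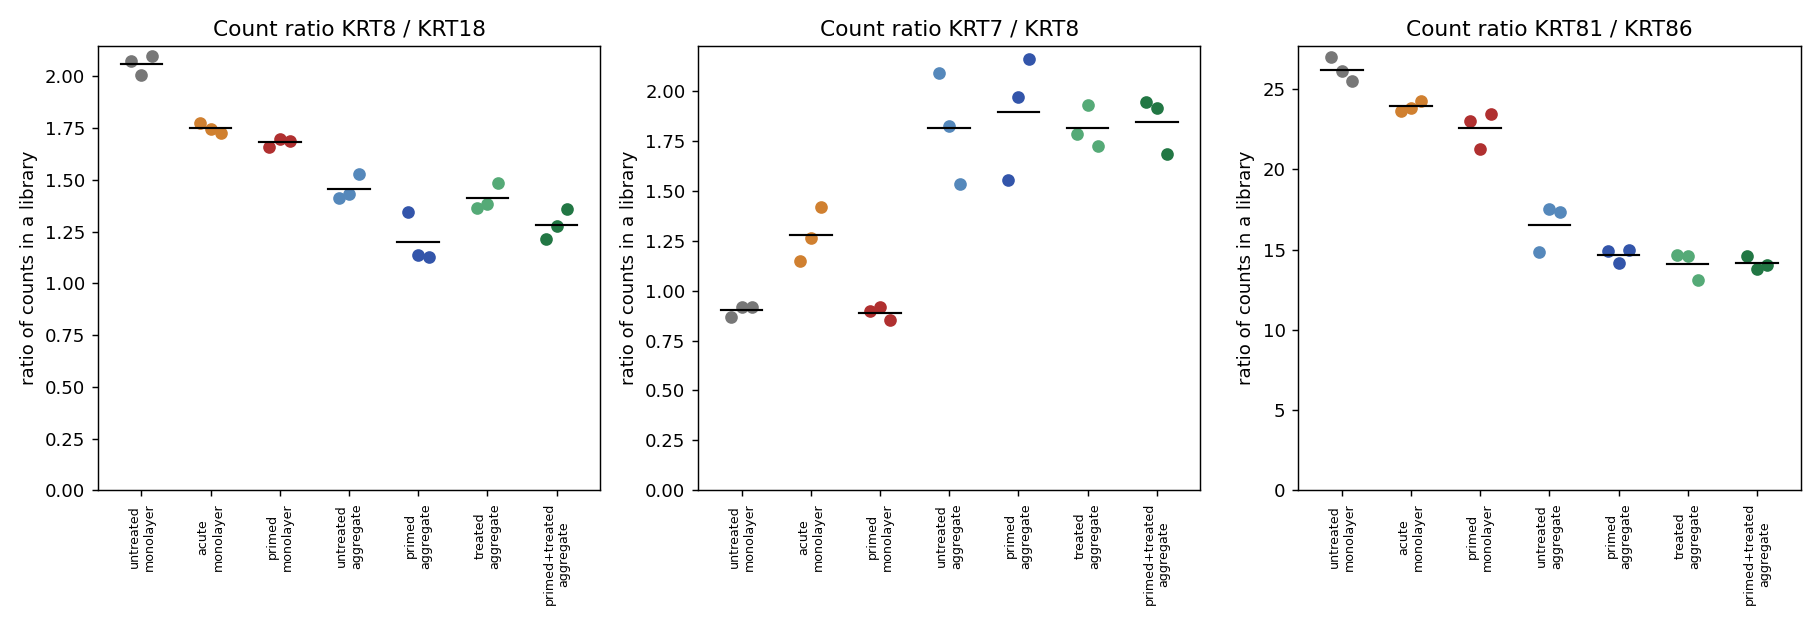
Points give the ratio of raw counts of 2 keratins within each of the 21 libraries and bars the group means, with linear axes from 0. For KRT8 over KRT18 and KRT81 over KRT86 all monolayer libraries lie above all aggregate libraries, and for KRT7 over KRT8 they lie below.

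Untreated aggregates were compared with untreated monolayers, both without antibody. The aggregates had 96 h with 5% matrigel, and the labels give no culture time for the monolayers. Growth form, matrigel and culture time therefore cannot be told apart. All 8 keratins passed, 5 higher and 3 lower, where 64.1% of all tested genes passed, 32.9% higher and 31.1% lower. Among the simple epithelial keratins KRT8 fell (log2 −0.67, SE 0.057, edgeR adjusted p = 1.96e-12), KRT18 fell less (log2 −0.18, SE 0.054, edgeR adjusted p = 0.00452), and KRT19 rose 1.63-fold (log2 0.70, SE 0.064, edgeR adjusted p = 1.81e-11). KRT7 rose 1.25-fold (log2 0.32, SE 0.080, edgeR adjusted p = 0.00114). The basal keratin KRT15 fell (log2 −0.77, SE 0.11, edgeR adjusted p = 1.41e-06). KRT80 rose 3.29-fold (log2 1.72, SE 0.066, edgeR adjusted p = 1.4e-21), KRT86 2.8-fold (log2 1.49, SE 0.13, edgeR adjusted p = 2.55e-08) and KRT81 1.77-fold (log2 0.82, SE 0.12, edgeR adjusted p = 8.46e-06). For all 8 the 3 libraries of 1 group were above the 3 of the other. The share of all genes for which this holds is not given here, so it marks no trait of the keratins. The median log2 change of the 8 was 0.51, against 0.010 over all tested genes. Both groups belong to the same set of 12 libraries. Melanocyte markers summed to 24.4 to 32.7 CPM in untreated aggregates and 57.5 to 125 in untreated monolayers, 5 immune and endothelial markers to 57.9 to 63.1 and 43.8 to 48.7, and their part in these results was not tested. Each group holds 2 libraries with MYH7. Without those, KRT7 (0.14, edgeR adjusted p = 0.391) and KRT18 (−0.15, adjusted p = 0.236) no longer passed, and the other 6 did.

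Other keratins were few in these cells. Of 46 listed, 19 were in the table and 17 were tested, and 7 rose and 4 fell in aggregates (median 1.06). Over all tested genes 64.1% passed, the share to hold beside the counts of every list here. KRT23, a type I keratin of several epithelia, rose from 0.734 ± 0.0435 to 5.22 ± 0.607 CPM (2.82), and the type I hair keratin KRT40 from 0.15 ± 0.113 to 1 ± 0.379 (2.78). KRT13, of stratified mucosa, fell from 3.21 ± 0.26 to 0.429 ± 0.119 CPM (−2.88). Of 16 tested genes for proteins that anchor keratin filaments to desmosomes and to other filaments, 11 rose and 2 fell (median 0.28), including the desmosomal proteins PKP2 (1.97) and DSP (0.66), and 8 rather than 13 passed without the MYH7 libraries. Of 22 tested transcription factors of epithelial cells, 11 rose and 6 fell, with FOS (3.99) and the ETS factor ELF3 (1.34) the clearest by p.

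Acute exposure of monolayers was compared with untreated monolayers, to ask what 24 h of trastuzumab does in 2D. Of the 8 keratins 4 passed, 3 higher and 1 lower, where 20.2% of all genes passed, 11.3% higher and 8.91% lower. KRT80 rose 1.54-fold (log2 0.62, SE 0.066, edgeR adjusted p = 7.87e-09), KRT7 1.4-fold (log2 0.49, SE 0.080, edgeR adjusted p = 8.23e-05) and KRT18 1.17-fold (log2 0.22, SE 0.054, edgeR adjusted p = 0.0025), and KRT15 fell (log2 −0.40, SE 0.11, edgeR adjusted p = 0.00856). Values that did not pass were −0.014 for KRT8 (SE 0.057), −0.052 for KRT19 (SE 0.064), 0.18 for KRT81 (SE 0.11) and 0.31 for KRT86 (SE 0.13). KRT86 passed in DESeq2 (0.32, adjusted p = 0.0472), and KRT86 (0.32, edgeR adjusted p = 0.00207) and KRT81 (0.19, adjusted p = 0.0201) in a fit of only these 2 groups, which called 6 of 8. The share of all genes that passed in that fit is not given here. The members' median was 0.20, against −0.017 over all genes. Luminal markers summed to 12342 to 12696 CPM in exposed and 9404 to 10288 in untreated monolayers, with ERBB2 alone averaging 9937 and 7732. Immune and endothelial markers summed to 58 to 65.6 and 43.8 to 48.7. What part these markers had in the results was not tested. In each group 2 of 3 libraries held MYH7, and without them 1 of 8 keratins passed, KRT80 (0.66, edgeR adjusted p = 0.00212), with KRT7 at 0.24 (adjusted p = 0.322), KRT18 at 0.16 (0.426) and KRT15 at −0.48 (0.182). That alternative leaves 1 library in each of the 2 groups, assumed to vary like the other groups, and over all genes it lowered the number that passed from 3222 to 727.

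Among other keratins 2 of 17 rose and 1 fell after acute exposure (median 0.28), where 20.2% of all genes passed. KRT23 went from 0.734 ± 0.0435 to 5.51 ± 0.436 CPM (2.90) and the suprabasal keratin KRT10, whose exons overlap an antisense gene, from 26.5 ± 2.8 to 44.9 ± 15 (0.78). Of the 16 filament anchors 9 rose and 0 fell, among them JUP, the plakoglobin of desmosomes and adherens junctions (0.68), and periplakin, PPL (0.44). Of the 22 epithelial transcription factors 12 rose and 0 fell, with ELF3 at 0.84 and TFAP2C at 0.41. Leaving out the MYH7 libraries lowered the numbers that passed from 3 to 1 for other keratins, from 9 to 4 for filament anchors and from 12 to 4 for transcription factors. Of other keratins 1 passed without untreated monolayer replicate 1 or acutely exposed replicate 3.

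Primed and untreated monolayers were compared to ask what remains, or follows, 96 h after the same exposure. Of the 8 keratins 7 rose and 0 fell, where 65.3% of all genes passed, 33.7% higher and 31.6% lower. KRT80 rose 5.29-fold (log2 2.40, SE 0.066, edgeR adjusted p = 8.03e-25). The basic pair rose together, KRT18 2.06-fold (log2 1.04, SE 0.054, edgeR adjusted p = 6.53e-18) and KRT8 1.68-fold (log2 0.75, SE 0.057, edgeR adjusted p = 1.49e-13). KRT19 rose 1.99-fold (log2 0.99, SE 0.064, edgeR adjusted p = 5.07e-15) and KRT7 1.66-fold (log2 0.73, SE 0.080, edgeR adjusted p = 2.65e-08). The hair keratins KRT86 (log2 0.77, SE 0.13, edgeR adjusted p = 5.91e-05) and KRT81 (log2 0.56, SE 0.12, edgeR adjusted p = 0.000432) rose too. KRT15 was at −0.21 (SE 0.11, edgeR adjusted p = 0.102), and passed as lower in a fit of only these 2 groups (−0.24, adjusted p = 0.00643). For the 7 that rose, all 3 primed libraries were above all 3 untreated ones, but the share of all genes so separated is not given here. The median of the 8 was 0.76, against 0.0088 over all genes. Primed and untreated monolayers belong to different sets, so priming, culture time and set cannot be told apart. Kidney markers summed to 28.5 to 48.4 CPM in primed and 22.6 to 25.3 in untreated monolayers, with the kidney tubule protein UMOD at 3.86 to 11.1 and at 0. Melanocyte markers summed to 11.7 to 15.2 and 57.5 to 125. Luminal markers summed to 10796 to 11659 and 9404 to 10288, with ERBB2 alone averaging 8353 and 7732. KRT81 no longer passed without the MYH7 libraries (0.43, adjusted p = 0.111).

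Of the 17 other keratins 11 rose and 1 fell in primed monolayers (median 1.74). Over all genes 65.3% passed, which is the share to hold beside this and the next counts. As above, priming, culture time and set cannot be told apart here. KRT16 and KRT17, keratins of wounded and stressed epidermis, went from 0.358 ± 0.194 to 16 ± 1.04 CPM (5.47) and from 0.458 ± 0.262 to 3.11 ± 0.778 (2.81). Of the 16 filament anchors 14 rose and 0 fell (median 0.51), led by p by envoplakin, EVPL (1.21), and PPL (0.89). Of the 22 transcription factors 15 rose and 5 fell, with ELF3 at 0.92 and SP1 at −0.78.

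Primed aggregates were compared with untreated aggregates, the same question of priming in 3D. Of the 8 keratins 0 rose and 4 fell, where 21.2% of all genes passed, 11.5% higher and 9.66% lower. KRT15 fell (log2 −0.80, SE 0.12, edgeR adjusted p = 4.13e-05), as did KRT19 (log2 −0.47, SE 0.064, edgeR adjusted p = 1.68e-06), KRT81 (log2 −0.36, SE 0.11, edgeR adjusted p = 0.037) and KRT8 (log2 −0.26, SE 0.057, edgeR adjusted p = 0.00103). KRT7 was at −0.20 (SE 0.080) and KRT86 at −0.18 (SE 0.12), and KRT18 (0.023) and KRT80 (0.016) differed by less than their SE of 0.054 and 0.062. The median of the 8 was −0.23, against −0.00020 over all genes. Melanocyte markers summed to 63.7 to 107 CPM in primed and 24.4 to 32.7 in untreated aggregates. Luminal markers summed to 11302 to 11903 and 8667 to 9648, with ERBB2 alone averaging 8274 and 6189. VIM, the filament gene of mesenchymal cells, was at 60 ± 22 and 20.6 ± 7.05 CPM. The part of these markers in the results was not tested. The call for KRT81 was lost without any 1 of the 3 untreated aggregates (−0.39, −0.36 and −0.33) and without primed aggregate replicate 1 (−0.22), and in a fit of only these 2 groups (−0.36, edgeR adjusted p = 0.0701). Of the untreated aggregates 2 of 3 held MYH7 and of the primed ones 0, and without the MYH7 libraries KRT81 was at −0.42 (adjusted p = 0.207). KRT7 passed without primed aggregate replicate 3 (−0.27) and in DESeq2 (−0.20, adjusted p = 0.0441). KRT81, KRT83, KRT85 and KRT86 summed passed (−0.35, edgeR adjusted p = 0.0408).

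Of the 17 other keratins 1 rose, KRT23 (0.58), and 2 fell, KRT17 (−1.62) and KRT10 (−0.97), where 21.2% of all genes passed. Of the 16 filament anchors 8 rose and 2 fell (median 0.14). Examples are the cytolinkers DST (0.70) and MACF1 (0.62), which tie filaments to other parts of the cytoskeleton. Of the 22 transcription factors 9 rose and 1 fell, with the ETS factor EHF at 0.60 and FOS at −0.83. With the MYH7 libraries left out, 5 rather than 10 anchors and 0 rather than 3 other keratins passed. The number of transcription factors that passed went from 10 to 6 without untreated aggregate replicate 2 or 3, and to 5 without primed aggregate replicate 2 or in a fit of only the 2 groups.

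The difference between priming in aggregates and priming in monolayers was tested directly. All 8 keratins passed, all lower in aggregates, where 57% of all genes passed, 27.6% higher and 29.4% lower. It was largest for KRT80 (log2 −2.39, SE 0.090, edgeR adjusted p = 1.63e-20) and KRT19 (log2 −1.46, SE 0.090, edgeR adjusted p = 4.45e-15), followed by KRT18 (−1.02), KRT8 (−1.01), KRT86 (−0.96), KRT7 (−0.93), KRT81 (−0.92) and KRT15 (−0.59). In monolayers 7 of the 8 rose with priming, and in aggregates 0 did. The median was −0.98 for the 8 and −0.0077 over all genes. Primed monolayers are the only one of the 4 groups in the set of 9 libraries, and the labels give no culture time for untreated monolayers. The difference therefore cannot be told apart from the set or from culture time in monolayers. The share of each culture form in the difference varied. KRT15 changed by −0.21 with priming in monolayers, which did not pass, and by −0.80 in aggregates. KRT19 changed by 0.99 and −0.47, and KRT80 by 2.40 and 0.016. The calls for KRT15 (−0.34, edgeR adjusted p = 0.26) and KRT86 (−0.79, adjusted p = 0.0579) were lost without the MYH7 libraries.

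Treated and untreated aggregates were compared to ask what trastuzumab does once aggregates have formed. Of the 8 keratins 3 fell and 2 rose, where 36.7% of all genes passed, 18.8% higher and 17.9% lower. KRT81 fell most (log2 −0.81, SE 0.12, edgeR adjusted p = 3.72e-05), with KRT86 (log2 −0.58, SE 0.12, edgeR adjusted p = 0.00137) and KRT19 (log2 −0.42, SE 0.064, edgeR adjusted p = 3.24e-06). The basic pair rose slightly, KRT18 1.15-fold (log2 0.20, SE 0.054, edgeR adjusted p = 0.00281) and KRT8 1.11-fold (log2 0.15, SE 0.057, edgeR adjusted p = 0.0324). KRT7 was at 0.16 (SE 0.080), KRT80 at 0.11 (SE 0.062) and KRT15 at −0.27 (SE 0.12), and the median of the 8 was −0.080, against 0.00083 over all genes. The 2 groups belong to different sets, with kidney markers at 32.7 to 62.9 CPM in treated and 26.2 to 29.7 in untreated aggregates and melanocyte markers at 8.34 to 10.4 and 24.4 to 32.7, so treatment, the 24 h of added age and the set cannot be told apart. Without the MYH7 libraries KRT81 (−0.88) and KRT19 (−0.51) passed, and KRT86, which stayed at −0.58, KRT18 (0.14) and KRT8 (0.020) did not. That alternative leaves 1 untreated aggregate library, assumed to vary like the other groups. The call for KRT8 was also lost without untreated aggregate replicate 1 (0.10) or 2 (0.12), without treated aggregate replicate 1 (0.13) or 3 (0.16), and in a fit of only the 2 groups (0.15, adjusted p = 0.0559), and KRT15 passed without untreated aggregate replicate 3 (−0.38) and in the fit of only the 2 groups (−0.27, adjusted p = 0.0358).

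Of the 17 other keratins 4 rose and 2 fell in treated aggregates, where 36.7% of all genes passed. As above, treatment, age and set cannot be told apart here. KRT23 rose from 5.22 ± 0.607 to 12.9 ± 1.89 CPM (1.29). The hair keratins KRT85 (−1.26, at 0.571 ± 0.164 CPM) and KRT83 (−0.51, at 25.2 ± 3.66 CPM) fell as well, and reads from sequence they share with KRT81 and KRT86 cannot be told apart. Of the 16 filament anchors 11 rose, EVPL (0.67) among them, and 1 fell, PKP2 (−0.80). Of the 22 transcription factors 12 rose and 3 fell, with EHF at 0.71 and FOS at −1.44.

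Aggregates both primed and treated were compared with the same untreated aggregates. Of the 8 keratins 3 fell and 2 rose, where 35.5% of all genes passed, 17.6% higher and 17.9% lower. The 3 that fell were KRT81 (log2 −1.09, SE 0.12, edgeR adjusted p = 1.75e-06), KRT86 (log2 −0.87, SE 0.12, edgeR adjusted p = 4.27e-05) and KRT19 (log2 −0.60, SE 0.064, edgeR adjusted p = 7.32e-09), and the 2 that rose were KRT18 (log2 0.23, SE 0.054, edgeR adjusted p = 0.00106) and KRT80 (log2 0.19, SE 0.061, edgeR adjusted p = 0.0127). KRT15 was at −0.21 (SE 0.12), KRT7 at 0.075 (SE 0.080) and KRT8 at 0.039 (SE 0.057), and the median of the 8 was −0.086, against −0.0021 over all genes. These values share their control libraries with the comparisons of primed and of treated aggregates, and cross the library sets in the same way, with kidney markers at 27.8 to 69.5 CPM and melanocyte markers at 6.69 to 7.84 in the primed and treated aggregates. Without the MYH7 libraries KRT81 (−1.16), KRT86 (−0.87) and KRT19 (−0.69) passed, and KRT18 (0.16, edgeR adjusted p = 0.134) and KRT80 (0.19, adjusted p = 0.156) did not. Leaving out 1 library ended the call for KRT80 in 2 cases, untreated replicate 1 (0.17) and primed and treated replicate 1 (0.14), and gave one for KRT15 in 2, untreated replicate 3 (−0.32) and primed and treated replicate 1 (−0.32). Of the 17 other keratins 3 rose and 2 fell, with KRT85 at −1.89, KRT23 at 1.28 and KRT40 at 0.97, and 2 rather than 5 passed without the MYH7 libraries. Of the filament anchors 10 of 16 rose and 1 fell, and of the transcription factors 11 of 22 rose and 2 fell.

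Primed and treated aggregates were also set against treated aggregates, to ask what earlier priming adds to later treatment. 0 of the 8 keratins passed in edgeR, where 7.98% of all genes did, 3.18% higher and 4.8% lower. At an unadjusted p under 0.05 there were 3, all lower, KRT19 (−0.18, SE 0.064), KRT81 (−0.28, SE 0.11) and KRT86 (−0.29, SE 0.12). The share of all genes at that looser threshold is not given here, and the 7.98% is no measure for it. DESeq2 and limma voom each called 0, and a fit of only these 2 groups called 2, KRT19 (−0.18, edgeR adjusted p = 0.00655) and KRT86 (−0.29, adjusted p = 0.00015). That fit also called more of all genes, 2050 in place of 1274. The other values ran from −0.11 for KRT8 (SE 0.057) and −0.088 for KRT7 (SE 0.080) to 0.024 for KRT18 (SE 0.054), 0.063 for KRT15 (SE 0.12) and 0.081 for KRT80 (SE 0.061). The median of the 8 was −0.10, against 0.00094 over all genes, and both groups are in the set of 9 libraries, with melanocyte markers at 6.69 to 7.84 CPM in primed and treated and 8.34 to 10.4 in treated aggregates and 11 mesenchymal markers at 39.9 to 59.9 and 73.9 to 80.9. Of the 17 other keratins 0 rose and 2 fell, among them the mucosal keratin KRT4, from 170.3 ± 17.9 to 129.7 ± 4.04 CPM (−0.39). Of the filament anchors 1 of 16 rose and 2 fell, and of the transcription factors 2 of 22 rose and 2 fell. With any 1 of the 6 libraries left out, 1 anchor passed, and 695 to 1138 genes in place of 1274.

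Whether priming changed the response to treatment was tested as the interaction in the 4 aggregate groups. It passed for 2 of the 8 keratins, where 12.5% of all genes passed, 5.05% higher and 7.42% lower. KRT15 was at log2 0.86, SE 0.17, edgeR adjusted p = 0.00109, the distance between its changes of −0.80 with priming alone and 0.063 with priming before treatment. KRT19 was at log2 0.30, SE 0.090, edgeR adjusted p = 0.025, with −0.47 and −0.18. The other 6 lay between −0.11 for KRT86 (SE 0.17) and 0.15 for KRT8 (SE 0.080), and the median of the 8 was 0.092, against 0.0016 over all genes. Both treated groups are in the set of 9 libraries and both groups without treatment in the set of 12. The interaction therefore cannot tell treatment apart from the set and the 24 h of added age. KRT19 no longer passed without any 1 of 5 libraries, untreated aggregate replicate 3 (0.26), primed aggregate replicate 1 (0.24), treated aggregate replicate 3 (0.26) or primed and treated aggregate replicates 1 (0.29) and 2 (0.28). With the MYH7 libraries left out, KRT15 stood at 0.63 (edgeR adjusted p = 0.061), and KRT8 passed (0.28, adjusted p = 0.0496). Of the 16 filament anchors 7 passed below and 1 above 0 (median −0.12), with DST at −1.0, and 4 rather than 8 passed without the MYH7 libraries and 5 without primed aggregate replicate 2.

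Against primed aggregates, the primed and treated ones differed in 7 of the 8 keratins, 5 higher and 2 lower, where 29.8% of all genes passed, 14.9% higher and 14.8% lower. KRT15 rose 1.5-fold (log2 0.59, SE 0.12, edgeR adjusted p = 0.000687), KRT8 1.23-fold (log2 0.30, SE 0.057, edgeR adjusted p = 0.00012), KRT7 1.21-fold (log2 0.27, SE 0.080, edgeR adjusted p = 0.0117), KRT18 1.15-fold (log2 0.21, SE 0.054, edgeR adjusted p = 0.00353) and KRT80 1.13-fold (log2 0.18, SE 0.061, edgeR adjusted p = 0.0258). KRT81 (log2 −0.74, SE 0.12, edgeR adjusted p = 0.000138) and KRT86 (log2 −0.69, SE 0.12, edgeR adjusted p = 0.000506) fell, and KRT19 was at −0.12 (SE 0.064). The median of the 8 was 0.19, against −0.0022 over all genes. The comparison crosses the library sets, with kidney markers at 27.8 to 69.5 CPM against 21.9 to 27.2 and melanocyte markers at 6.69 to 7.84 against 63.7 to 107, so treatment, age and set cannot be told apart. Small rises depended on single libraries. KRT80 did not pass without primed aggregate replicate 1 (0.091) or primed and treated replicates 1 (0.13) or 2 (0.18), nor in a fit of only the 2 groups (0.18, edgeR adjusted p = 0.0758). KRT7 did not pass without primed aggregate replicate 1 (0.20) or primed and treated replicate 1 (0.22), and KRT18 without the latter (0.15), so that 4 of 8 passed without primed and treated replicate 1, while KRT19 passed without primed aggregate replicate 1 (−0.19). Of the other keratins 4 of 17 rose and 0 fell, including KRT17 (1.66), KRT16 (1.0) and KRT23 (0.70), of the filament anchors 5 of 16 rose and 3 fell, and of the transcription factors 5 of 22 rose and 3 fell. Without primed aggregate replicate 1, 7 other keratins passed, and 5 transcription factors passed without primed aggregate replicate 2 or 3 or any 1 of the primed and treated replicates.

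Primed and treated aggregates were last compared with primed monolayers, 2 groups of the same set of 9 libraries. They differ in growth form, in matrigel, in the second exposure and in its 24 h of added time. Of the 8 keratins 7 fell and 0 rose, where 63.9% of all genes passed, 31.9% higher and 32.1% lower. KRT8 fell most (log2 −1.38, SE 0.058, edgeR adjusted p = 8.57e-21), followed by KRT18 (log2 −0.99, SE 0.054, edgeR adjusted p = 1.46e-17), KRT19 (log2 −0.88, SE 0.064, edgeR adjusted p = 6.74e-14), KRT81 (log2 −0.83, SE 0.12, edgeR adjusted p = 8.03e-06), KRT15 (log2 −0.77, SE 0.11, edgeR adjusted p = 1.69e-06), KRT80 (log2 −0.49, SE 0.061, edgeR adjusted p = 1.25e-08) and KRT7 (log2 −0.33, SE 0.080, edgeR adjusted p = 0.000926). KRT86 was at −0.16 (SE 0.13), and KRT81, KRT83, KRT85 and KRT86 summed at −0.79 (edgeR adjusted p = 1.2e-05). The median of the 8 was −0.80, against 0.019 over all genes. Melanocyte markers summed to 6.69 to 7.84 CPM in the aggregates and 11.7 to 15.2 in the monolayers, and 10 brain markers to 49.5 to 65.3 and 29.6 to 32, and their part in these results was not tested. KRT8, KRT18 and KRT15 were thus lower in the aggregates in both comparisons of an aggregate with a monolayer group. Neither comparison can tell growth form, matrigel and time apart, and this one adds the second exposure. KRT7, KRT19, KRT80 and KRT81 were higher in untreated aggregates than in untreated monolayers and lower here, a difference between the 2 comparisons that was not tested. Of the other keratins 2 of 17 rose and 10 fell, with KRT16 at −3.51, KRT78 at −2.88 and KRT3 at −2.59. Of the filament anchors 4 of 16 rose and 7 fell, and of the transcription factors 14 of 22 rose and 6 fell.

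**Figure D4:**
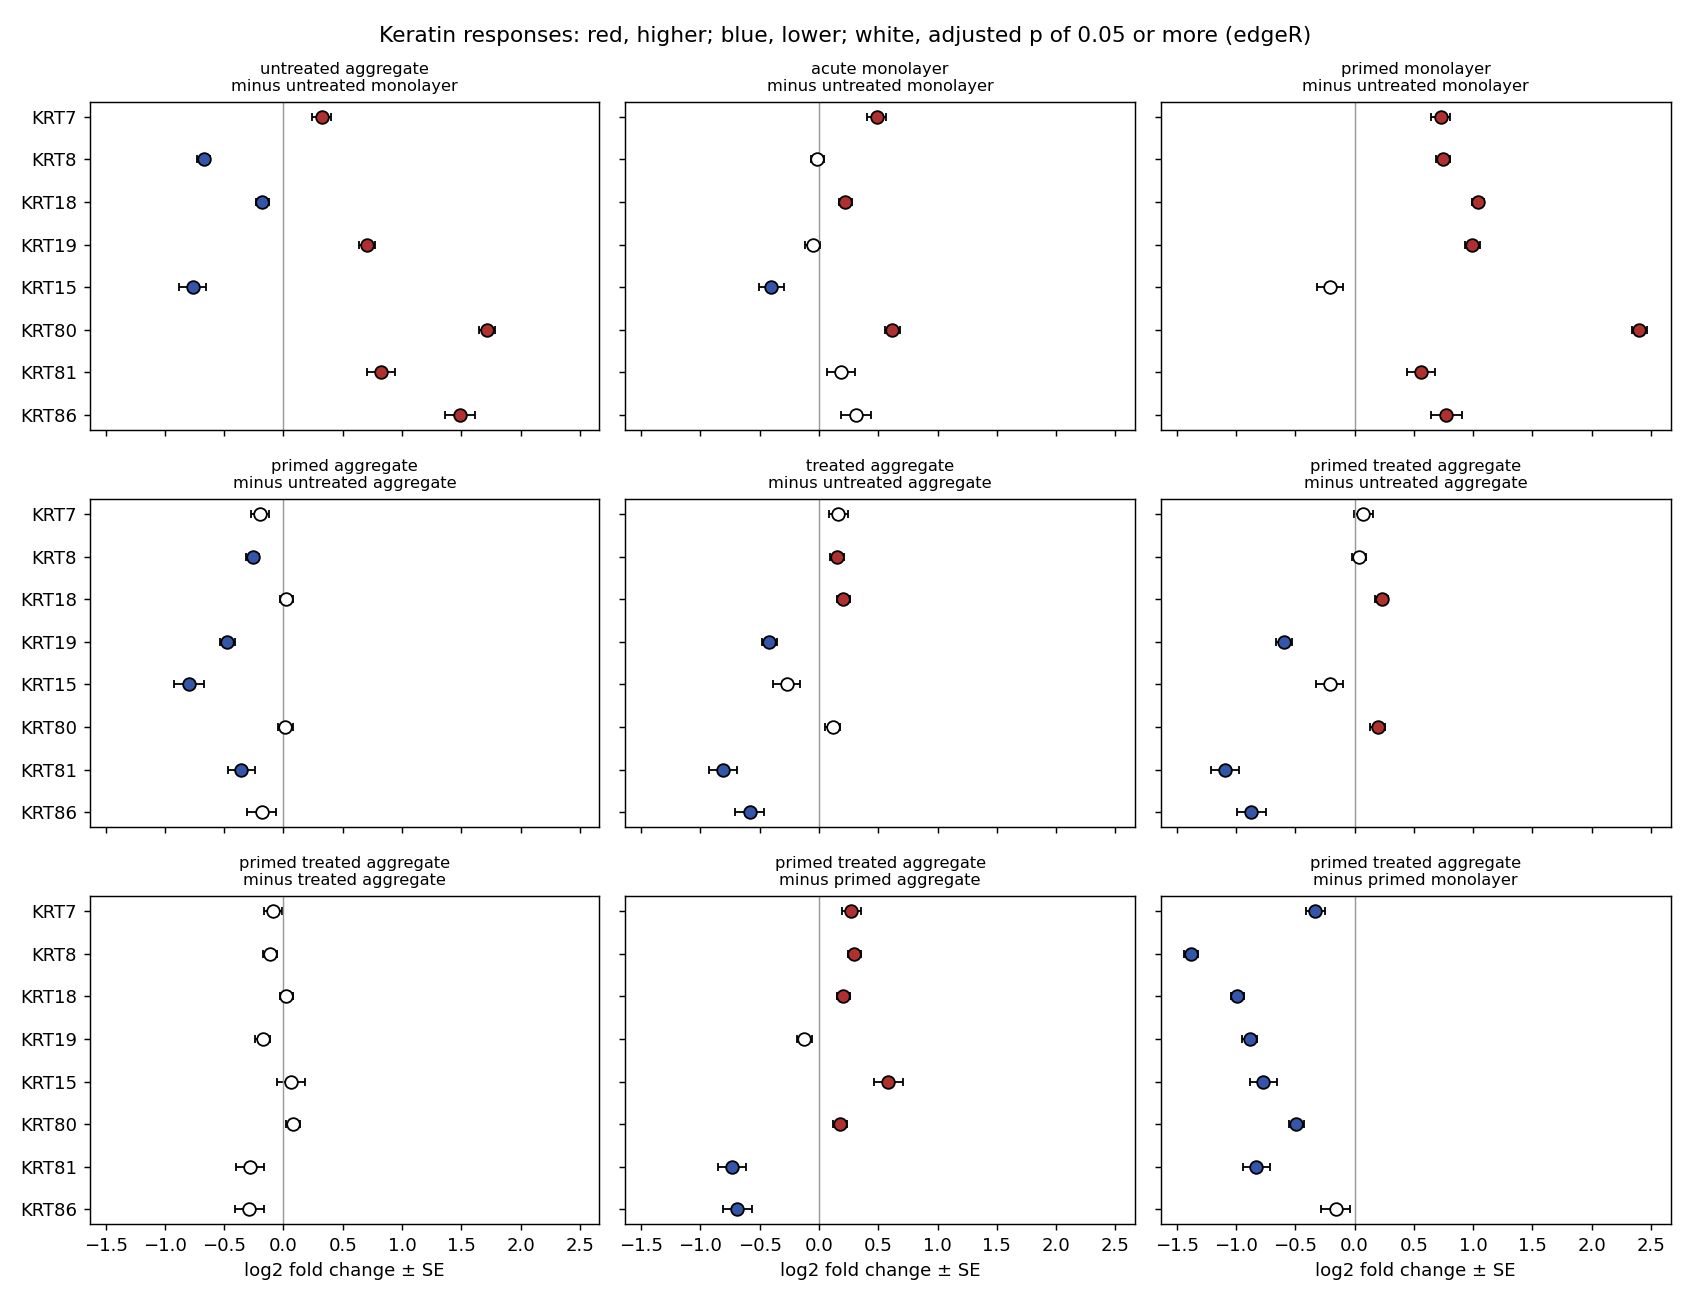
Each of the 9 panels gives 1 comparison, named above it as first group minus second, with the log2 fold change of each keratin and its SE on a shared linear axis. Red and blue points passed in edgeR as higher and lower, and white ones did not. KRT80 moved most in primed monolayers (2.40), and all 8 points are white in the comparison of primed and treated with treated aggregates.

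The enzymes, chaperones and adaptors that modify keratins, a list of 21 tested genes, passed in 1 (acute exposure, where 20.2% of all genes passed) to 14 (untreated aggregates against monolayers, where 64.1% did) cases, the latter close to the share of all genes. There 5 rose and 9 fell, among them the phosphatase PTPN11 (−0.55). In primed against untreated monolayers 8 rose and 4 fell, where 65.3% of all genes passed, with the 14-3-3 protein YWHAH at 1.49. The small heat shock protein HSPB1 rose in primed and treated aggregates against primed ones, from 708 ± 79.5 to 1279 ± 75 CPM (0.85). This comparison and that of primed with untreated monolayers, here and below, cross the library sets. Treatment, time and set cannot be told apart in them. Among 13 tested genes of other intermediate filaments, 7 passed in untreated aggregates against monolayers (2 higher, 5 lower), where 64.1% of all genes did, and 11 in primed against untreated monolayers (7 higher, 4 lower), where 65.3% did, with the lamins LMNB1 (1.63) and LMNB2 (1.11). Vimentin, VIM, was at 14.4 to 80.6 CPM in the 12 libraries and, like the melanocyte markers, lower in the other 9, at 0.702 to 3.78 CPM.

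Over the 21 libraries, the 3 genes of at least 10 CPM whose log2 levels were most like each keratin's, of 9332 candidates, are given as a description. The libraries share their groups and sets. KRT8 was closest to DPP3 (Pearson r 0.99), EWSR1 (0.99) and GET3 (0.99), and KRT18 to HNRNPM (0.99), CAPN1 (0.98) and TRAF3 (0.98). KRT19 was closest to ALG3 (0.96), MTFP1 (0.96) and NDUFV1 (0.96), and KRT7 to SDC1 (0.93), NCCRP1 (0.93) and MROH6 (0.91). KRT15 was closest to ELP6 (0.92), GOT1 (0.92) and MRS2 (0.91), and KRT80 to MMP15 (0.99), TUBGCP3 (0.99) and MTMR1 (0.98). KRT81 was closest to RND3 (0.95), ARF1 (0.94) and SEC13 (0.92), and KRT86 to SLC2A1 (0.96), DAPK3 (0.94) and KXD1 (0.94). No keratin was among the 3 genes nearest to any of the 8, and KRT81 and KRT86, despite their shared sequence, had an r of 0.68 with each other.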

How the data were processed

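Total RNA of 21 AU565 samples was extracted with TRIzol and made into TruSeq libraries, per the labels. The deposited table holds raw gene counts, which the authors made with featureCounts on hg38, with limma also named, per the submitters' processing notes. Versions, annotation and strand setting are not given in the sources used here. Columns were matched to samples by title. Those of the primed aggregates carry a word that their titles lack and were assigned by the treatment protocol.

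The counts were tested in edgeR 4.0.16 (R 4.3.3) by two-sided, robust quasi-likelihood tests. A single model gave each of the 7 groups its mean (14 residual degrees of freedom), with TMM scaling. In each of 9 comparisons and 2 differences, p-values were Benjamini-Hochberg adjusted over 15969 genes. The filterByExpr step had dropped 584 genes, which held 0.0116% of the counts. Of the rows, 174 had no symbol. These steps were tested on simulated data. Total counts were 15005070 to 26921113, and the biological coefficient of variation was 5.98%. Replicate pairs differed by 2.4 to 10.7 times counting variance, so none was taken as a duplicate.

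The 8 keratins and the gene lists were chosen with earlier results of these data known. Named are all 8, the 3 called other keratins with the largest change among those of at least 1 CPM in 1 group, up to 2 called list members with the smallest p, and the 3 genes with the highest r to each keratin (log2 of CPM plus 0.5, mean of at least 10 CPM). VIM and the KRT23 and KRT83 levels given beside other results were chosen after their values were seen; some genes taken by the rule are not printed. Alternatives were DESeq2 1.42.0, limma 3.58.1 voom, RLE size factors, no filter, each replicate left out, a block for the replicate number, fits of only the groups compared, the hair keratins summed, and, chosen after the data were seen, leaving out the 6 libraries with MYH7. Gene positions and sequences are from GENCODE 29 on GRCh38.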

Additional observations from a re-analysis of the deposited data

Results flagged for a closer look

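For all 8 keratins the change with priming differed between aggregates and monolayers, in a test of the difference itself (edgeR, log2 change in aggregates minus that in monolayers). The values were −2.39 for KRT80 (adjusted p = 1.63e-20), −1.46 for KRT19 (4.45e-15), −1.02 for KRT18 (2.1e-13), −1.01 for KRT8 (1.12e-12), −0.96 for KRT86 (0.000218), −0.93 for KRT7 (2.09e-07), −0.92 for KRT81 (0.000133) and −0.59 for KRT15 (0.00371). Primed monolayers are the only one of the 4 groups in the set of 9 libraries with melanocyte marker sums of at most 15.2 CPM. The labels give no culture time for untreated monolayers. This difference, the set and culture time in monolayers therefore cannot be told apart. KRT15 (−0.34) and KRT86 (−0.79) did not pass without the MYH7 libraries. For KRT15 (0.86, edgeR adjusted p = 0.00109) and KRT19 (0.30, adjusted p = 0.025) the change with priming differed between treated and untreated aggregates. The call for KRT15 was lost without the MYH7 libraries (0.63, adjusted p = 0.061) and that for KRT19 without any 1 of 5 libraries (untreated aggregate replicate 3, primed 1, treated 3, primed and treated 1 or 2).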

How the results depend on the processing

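Of 88 changes (8 keratins, 9 comparisons and 2 differences), direction and side of the threshold held for 85 in DESeq2, 87 in limma voom, 87 with RLE size factors, 88 without the filter, 78 in fits of only the groups compared, 85 with the hair keratins summed and 68 without the libraries with MYH7. With the replicate number as a block all 88 held, and the number of keratins called was the same in every comparison (8 of 8 for aggregates against monolayers, 4 for acute exposure). A pairing of samples by number was not seen, though this check cannot exclude it. In 0 of 21 pairs of groups did every same-numbered pair of libraries have an r over 0.1. Single values ran from −0.30 to 0.37. Without the MYH7 libraries the number of keratins called was 1 for acute exposure, 2 for treated and 3 for primed and treated against untreated aggregates, and in a fit of only the groups compared it was 2 for primed and treated against treated aggregates. With each replicate left out it was 4 to 7 for primed and treated against primed aggregates, lowest without primed and treated replicate 1, and 1 to 2 for the interaction of priming and treatment.

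Signs turned only for changes that had not passed. Without the MYH7 libraries they were −0.020 for KRT81 with acute exposure, −0.042 for KRT18 with priming of aggregates, and −0.093 for KRT8 and 0.019 for KRT15 in primed and treated against untreated aggregates. In the interaction KRT18 was −0.0052 in DESeq2, −0.00090 in limma voom, −0.0051 with RLE size factors and −0.00016 with only the groups compared, and KRT86 was 0.064 with the hair keratins summed. With each replicate left out, KRT8 ran from −0.035 to 0.019 and KRT19 from −0.090 to 0.0020 with acute exposure, KRT18 from −0.0058 to 0.051 and KRT80 from −0.048 to 0.098 with priming of aggregates, KRT8 from −0.011 to 0.10 in primed and treated against untreated aggregates, and KRT15 from −0.043 to 0.18 and KRT18 from −0.026 to 0.065 against treated ones. In the interaction the ranges were −0.044 to 0.047 for KRT18, −0.015 to 0.13 for KRT80, −0.064 to 0.19 for KRT81 and −0.25 to 0.036 for KRT86. The cause was not tested.

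Counts over lists that moved by over 1.5 times were these. Without the MYH7 libraries, filament anchors went from 13 to 8 in aggregates against monolayers, from 10 to 5 with priming of aggregates, from 8 to 4 in the interaction and from 11 to 7 in the difference between priming in aggregates and in monolayers. With acute exposure all genes went from 3222 to 727, anchors from 9 to 4, transcription factors from 12 to 4 and other keratins from 3 to 1. Other keratins went from 3 to 0 with priming of aggregates, from 5 to 2 in primed and treated against untreated aggregates and from 2 to 1 in the interaction, and all genes with priming of aggregates from 3379 to 2176. In fits of only the groups compared, that last count was 2177, transcription factors went from 10 to 5 with priming of aggregates and from 4 to 9 in primed and treated against treated aggregates, and all genes there from 1274 to 2050. DESeq2 called 5 other keratins with priming of aggregates and 1 in primed and treated against treated aggregates, and limma voom 7 transcription factors in the latter. With each replicate left out, that comparison gave 695 to 1138 genes, 1 anchor and 1 to 5 transcription factors. Transcription factors numbered 5 to 9 with priming of aggregates and 5 to 8 in primed and treated against primed aggregates, anchors 5 to 8 in the interaction, and other keratins 1 to 2 with acute exposure, 3 to 7 in primed and treated against primed aggregates and 2 to 4 in the interaction.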
